A study of Homo sapiens with 6 samples.

Results

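The genes described here are 53 genes that act in G2 phase and in mitosis, followed through 6 RNA-seq libraries. Their rows were taken from the deposited table by symbol, and 54 of its 57232 rows carried these symbols. The list of genes was itself chosen with earlier results of these data known. PIMREG was listed under its older symbol FAM64A and JPT1 as HN1. CKS1B had a further row (ENSG00000268942) that was listed at 0 in every library and was not used. Of the 53 genes, 52 averaged 1 FPKM or more and were tested among 10416 genes. CDC25C, the phosphatase that activates CDK1, had a mean of 0.95 FPKM and was not tested.

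The cells were IMR90, human fetal lung fibroblasts, at passage 13. They were infected on day 0 with an empty vector (vector, n = 3) or with ARID1B cDNA (ARID1B, n = 3), selected with puromycin until day 4 in both groups and collected on day 6. ARID1B is a DNA-binding subunit of SWI/SNF, a complex that moves and evicts nucleosomes, and the comparison asks which transcripts differ when it is expressed from a transgene in the infected, selected population. The libraries of a group are described as biological replicates, and p-values here measure the spread between them.

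Entry into mitosis is driven by CDK1 bound to its cyclins, and the kinases PLK1, AURKA and AURKB then direct the building of the spindle and the attachment of chromosomes. The spindle checkpoint holds back CDC20, the activator of the anaphase-promoting complex (APC/C), until every kinetochore is attached. The APC/C then marks cyclin B and other proteins for destruction, after which the cell divides. Transcripts of these genes are made mainly in G2 and mitosis and are scarce in resting or senescent cells, in which the DREAM complex holds their promoters silent. In RNA from a whole culture, a smaller share of cells in G2 or mitosis and less RNA per cell cannot be told apart.

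Promoters of such genes are known for a CHR element, letters TTTGAA or TTCGAA close to the start of transcription, and for upstream CCAAT boxes. Both were searched for on both strands from 250 bases before to 50 bases after each RefSeq start (GRCh38.p14), and 45 of the 53 genes had at least 1 such window. The CHR letters were present for 36 of the 45 genes (80%), against 19.5% of 27305 genes with a window. CCAAT letters were present for 33 of them (73.3%, against 39.7%), and both motifs for 29 (64.4%, against 7.85%). Within the 100 bases before a start, 18 genes held both (40%, against 1.34%). The E2F letters known from G1/S promoters (TTTGGCGC, TTTCGCGC, TTTGCCGC or TTTCCCGC) were present for 3 of the 45 (6.67%, against 3.99%). None of the 8 genes shown here holds E2F letters, and CHR and CCAAT letters can share bases.

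The 100 bases before the start are shown for 8 genes, since these letters are what most of the promoters share and their spacing can be compared. Each runs 5′ to 3′ on the strand of the gene, in lower case with CHR letters (TTTGAA, or TTCAAA where on the other strand) and CCAAT letters (CCAAT, or ATTGG where on the other strand) in capitals.
CCNB2: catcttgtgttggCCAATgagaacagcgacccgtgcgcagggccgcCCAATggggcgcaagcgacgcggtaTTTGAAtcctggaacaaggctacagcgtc
PLK1: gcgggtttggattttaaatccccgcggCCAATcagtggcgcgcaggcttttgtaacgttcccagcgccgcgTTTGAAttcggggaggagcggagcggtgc
CKS2: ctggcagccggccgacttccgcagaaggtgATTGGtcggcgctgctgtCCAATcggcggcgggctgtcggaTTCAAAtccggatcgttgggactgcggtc
KIF11: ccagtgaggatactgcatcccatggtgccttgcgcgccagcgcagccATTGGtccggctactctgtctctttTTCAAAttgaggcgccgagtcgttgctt
CDC20: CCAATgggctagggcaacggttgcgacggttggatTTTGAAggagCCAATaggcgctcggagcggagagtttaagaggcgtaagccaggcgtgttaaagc
MKI67: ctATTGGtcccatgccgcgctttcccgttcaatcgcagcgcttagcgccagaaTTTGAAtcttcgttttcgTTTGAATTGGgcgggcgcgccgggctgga
TOP2A: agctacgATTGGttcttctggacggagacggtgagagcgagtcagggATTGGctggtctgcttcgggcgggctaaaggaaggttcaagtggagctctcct
GAS2L3: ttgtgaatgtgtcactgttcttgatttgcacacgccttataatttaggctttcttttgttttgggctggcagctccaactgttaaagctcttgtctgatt

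In GRCh38.p14 these stretches lie at chr15:59105046-59105145 for CCNB2, chr16:23678789-23678888 for PLK1, chr9:89311095-89311194 for CKS2 and chr10:92593030-92593129 for KIF11, all on the plus strand. Those of CDC20 and GAS2L3, also on the plus strand, lie at chr1:43358881-43358980 and chr12:100593518-100593617. Those of MKI67 and TOP2A, on the minus strand, lie at chr10:128126424-128126523 and chr17:40417897-40417996. The CHR letters begin 29 bases before the start in CCNB2, PLK1 and CKS2 and 28 bases before it in KIF11, with a CCAAT box further from the start in each. In CDC20 they begin 65 bases before the start and lie between its CCAAT boxes. MKI67 has a CHR at 47 and at 29 bases before the start, and the nearer of these shares bases with a CCAAT box on the other strand. TOP2A has CCAAT boxes alone in this stretch, and GAS2L3, a cytokinesis gene, has neither motif in its window.

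Library totals, read from the steps between low FPKM values, lay between 63386813 and 91924514 reads or fragments. ARID1B had 2.29, 1.31 and 2.05 FPKM in the vector libraries and 32.5, 21.0 and 28.3 in the ARID1B libraries, in the order of replicates 1, 2 and 3 that is kept throughout, a log2 change of 3.29 (limma, adjusted p = 0.0255, and 3.14 without vector replicate 2), in the direction of the labels. All 10 fibroblast markers reached a mean of 1 FPKM. Epithelial markers (0 of 9, with KRT5, SFTPC and NKX2-1 at 0) and blood markers (0 of 9, with CD3E at 0) did not, and of 7 endothelial markers 1 did (TEK), with CDH5 at 0. Vector replicate 2 stood apart, at 48.49 along the leading principal component (63.8% of the variance), where the remaining 5 libraries lay between -19.96 and 3.626. Replicate 3 lay between replicates 1 and 2 of its group for 85% of the genes tested in the vector group and 69.2% in the ARID1B group, and for 52 (98.1%) and 41 (77.4%) of the 53 mitosis genes. The log2 changes of the genes with values in every library are therefore given with and without vector replicate 2. So are the count above 0 and the median of the 52 tested genes and of the other cell cycle lists. For the 52 tested genes this count and median are also given without both libraries numbered 3.

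The levels of most of the 53 genes differed more between libraries of a group than between the groups. Vector replicate 2 held the highest level of 35 genes (66%, against 39.5% of all genes tested), and vector replicate 1 held the lowest level of 46 (86.8%, against 17.4%). Cells with the same empty vector thus gave both ends of the range for most mitosis genes. ARID1B replicate 1 was the highest library for 11 genes and ARID1B replicate 3 for 7. Within the ARID1B group, replicate 2 was the lowest for 51 of 53 (96.2%, against 55.2%).

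**Figure D1:**
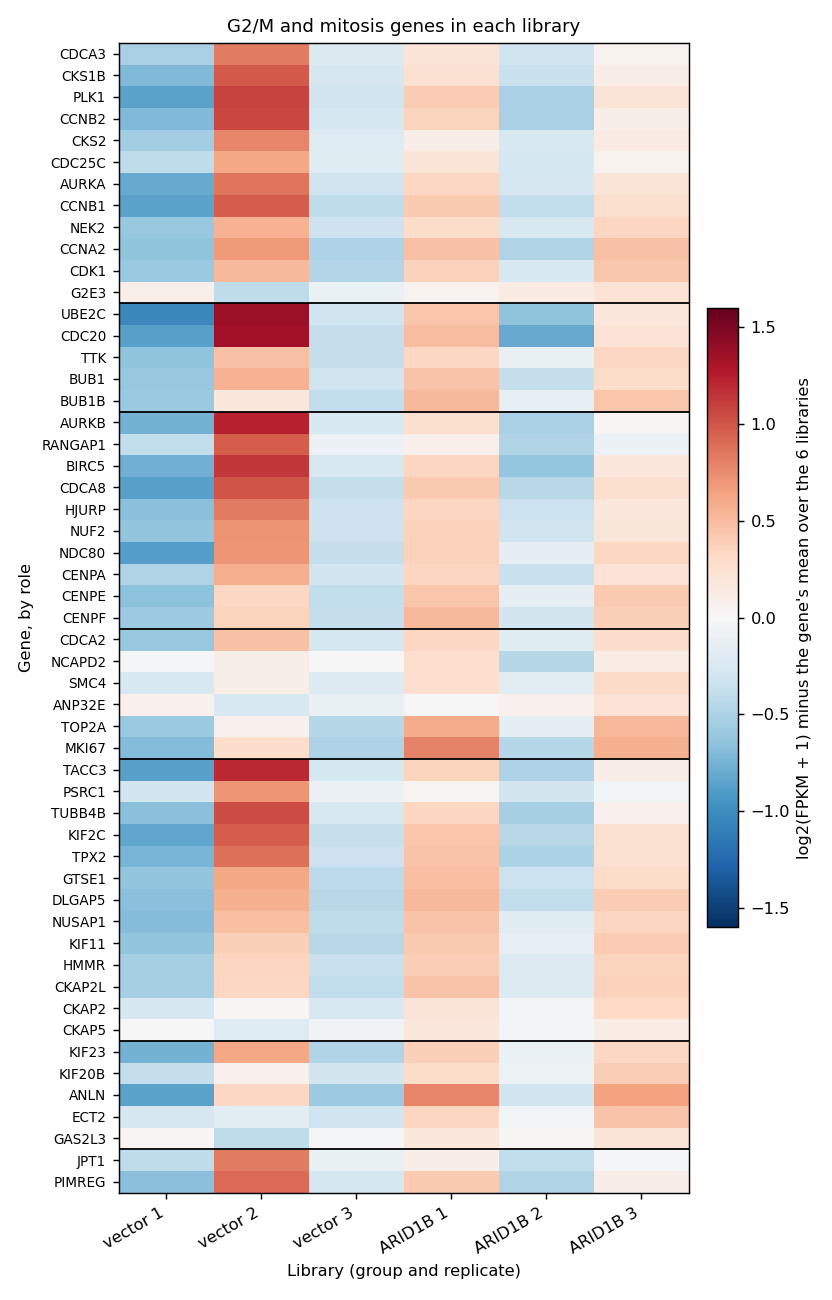
Level of each of the 53 genes in each library, as log2(FPKM + 1) minus the mean of the gene over the 6 libraries, with genes in rows grouped by role. In most rows vector replicate 2 is red, vector replicate 1 is blue, and ARID1B replicates 1 and 3 lie above ARID1B replicate 2.

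The difference between libraries of the same group was large. Vector replicate 2 exceeded vector replicate 1 by a median of 2.95-fold over the 53 genes (range 0.538 to 7.14), against a median of 1 over all genes tested. The ratio was at least 2-fold for 43 genes (81.1%, against 9.43%). ARID1B replicate 1 exceeded ARID1B replicate 2 by a median of 1.79-fold (range 0.920 to 2.77), against 1.07, and at least 2-fold for 20 genes (37.7%, against 1.93%). Counting error was small beside these ratios: members held 215 to 66294 reads per library, and the 95% counting interval lay above 1 for 49 genes in the first ratio and for 51 in the second.

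**Figure D2:**
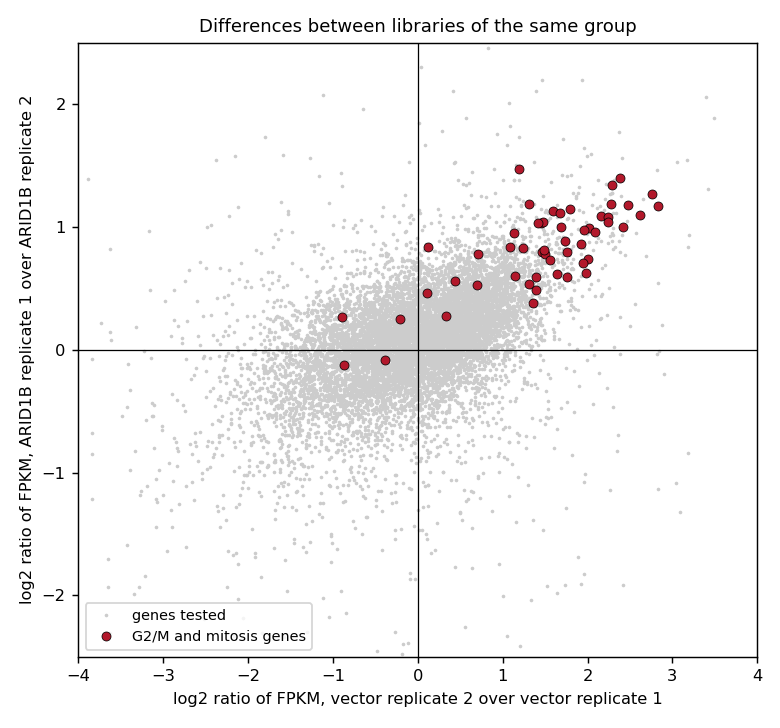
Ratio of vector replicate 2 to vector replicate 1 (x axis, log2) against the ratio of ARID1B replicate 1 to ARID1B replicate 2 (y axis, log2) for the genes tested in grey and the 53 G2/M and mitosis genes in red. The red points gather at the upper right, with 49 of 53 above 0 on the x axis and 51 of 53 above 0 on the y axis.

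The order of all 6 libraries was shared by many of the genes. For 20 genes (37.7%, against 3.73% of all genes tested) the order from the highest was vector 2, ARID1B 1, ARID1B 3, vector 3, ARID1B 2 and vector 1. A further 9 genes (17%, against 2.95%) had the same order except that ARID1B 2 lay above vector 3. Another 9 (17%, against 0.826%) had the order ARID1B 1, ARID1B 3, vector 2, ARID1B 2, vector 3 and vector 1. The median deviation of the genes from their own means was -0.63, 0.62 and -0.32 in vector replicates 1, 2 and 3 and 0.36, -0.31 and 0.24 in those of ARID1B, on the log2(FPKM + 1) scale. This gave -0.11 ± 0.65 (SD, n = 3) for the vector and 0.10 ± 0.36 (SD, n = 3) for ARID1B, so the groups overlapped and the difference of their means lay within the spread of either.

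Between the groups, 0 of the 52 genes tested passed the threshold (limma, adjusted p between 0.351 and 0.998, and likewise 0 with voom on recovered reads), and 3 of all genes did, all higher with ARID1B (0.0288% higher and 0% lower). At an unadjusted limma p under 0.05 there were 2 mitosis genes, ECT2 and TOP2A, both with higher values with ARID1B, against 4.64% higher and 5.94% lower over all genes. The log2 change was above 0 for 38 genes and below 0 for 14 (73.1% above, against 47.6%), with a median of 0.22 against -0.02 over all genes. It ran from -0.32 for RANGAP1 to 0.74 for ANLN. The vector and ARID1B libraries did not overlap for 1 gene, ECT2, against 9.44% of all genes higher and 11.1% lower with ARID1B. For 41 of the 53 genes the SD of the vector libraries was larger than the difference of the group means. An exact permutation test of 3 libraries against 3 cannot give a two-sided p under 0.1.

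The share of genes above 0 and their median depended on the libraries kept, and most on vector replicate 2. That library was the highest of the vector group for 48 of the 52 genes (92.3%, against 48.9% of all genes tested). For any such gene, here and in the other lists, leaving out vector replicate 2 raises the log2 change by arithmetic alone. Without it, 51 of 52 genes had a log2 change above 0 (98.1%, against 47.8%), with a median of 0.59, and again 0 passed the threshold (smallest adjusted p in limma 0.0757, for KIF23, a kinesin of the central spindle named after its values were seen). In that fit 1.2% of all genes were called higher and 1.91% lower. The groups then did not overlap for 26 genes, all higher with ARID1B, against 18.8% of all genes higher and 23.9% lower. At an unadjusted limma p under 0.05 there were 23, against 10% and 13.7%. Without vector replicate 1, in contrast, 27 of 52 lay above 0 with a median of 0.02, and without both libraries numbered 3, 28 of 52 with a median of 0.05. Leaving out ARID1B replicate 2 gave 49 of 52 above 0 with a median of 0.42. Leaving out ARID1B replicate 1 gave 32 of 52 with a median of 0.12.

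**Figure D3:**
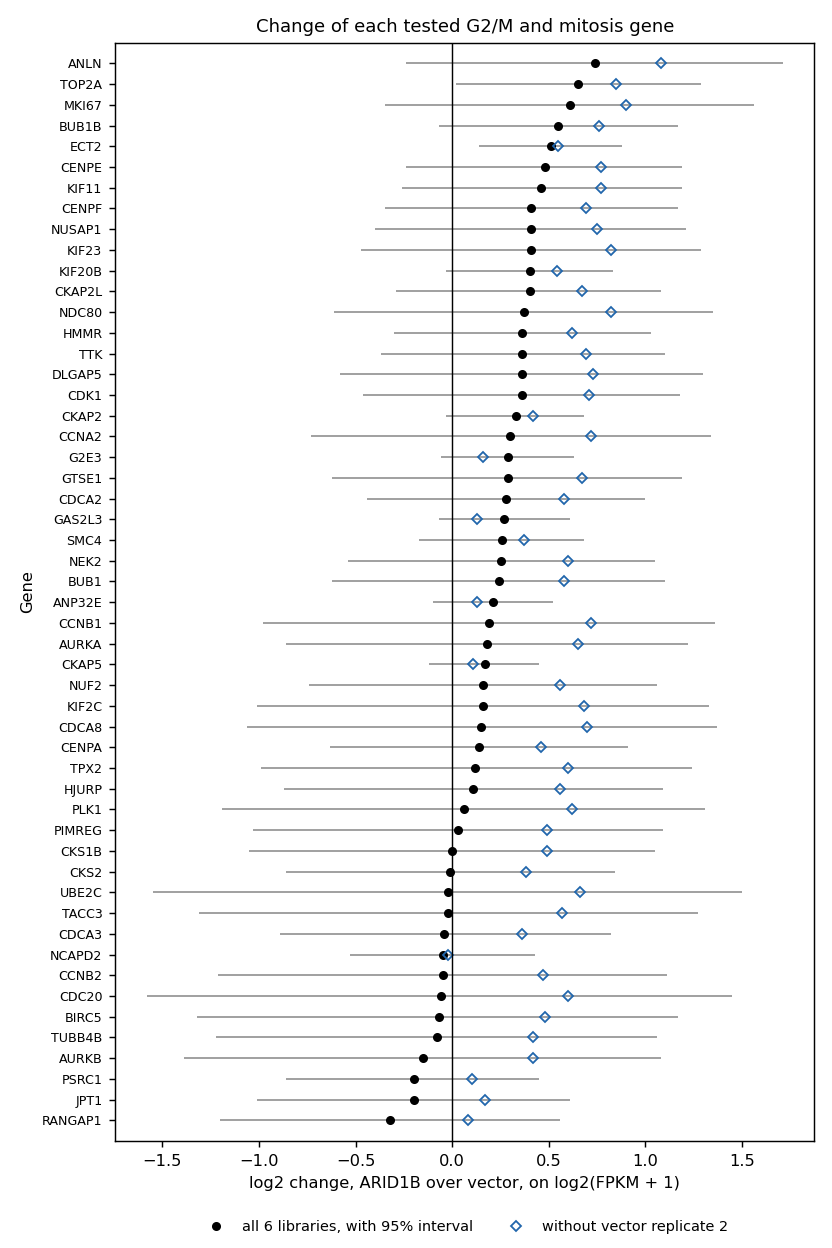
Log2 change of ARID1B over vector for each of the 52 tested genes, on log2(FPKM + 1), from all 6 libraries with its 95% interval (black) and without vector replicate 2 (blue). The black points run from -0.32 to 0.74 and the blue points from -0.02 to 1.08.

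Among the genes of mitotic entry, 12 kinases, cyclins and partners, vector replicate 2 was the highest library for 11 and the lowest for 1, the ubiquitin ligase G2E3. CCNB1, the cyclin B that activates CDK1, was at 8.90, 33.8 and 12.5 FPKM in the vector libraries and at 22.9, 12.6 and 20.4 in the ARID1B libraries. CDK1, the kinase itself, was at 1.96, 5.39 and 2.24 FPKM in the vector libraries and at 4.78, 2.75 and 5.03 in the ARID1B libraries. Both were lowest in vector replicate 1 and highest in vector replicate 2, and all ARID1B libraries lay between these. The log2 changes of CCNB1 and CDK1 were 0.19 (SE 0.484, limma adjusted p = 0.889) and 0.36 (SE 0.339, adjusted p = 0.729), and 0.72 and 0.71 without vector replicate 2 (adjusted p = 0.192 and 0.133).

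PLK1, the polo-like kinase that matures the spindle poles, was at 1.67, 9.28 and 2.90 FPKM in the vector libraries and at 5.43, 2.40 and 4.59 in the ARID1B libraries. Its ratio of vector replicate 2 to vector replicate 1 was 5.56 (95% counting interval 5.23 to 5.93), which is the largest of this role. CKS2, a small subunit that CDK complexes use to bind phosphorylated substrates, was the most abundant of the role at 49.0, 126 and 62.6 FPKM against 78.4, 60.5 and 80.0. Reads of CKS2 and CKS1B could be shared with near-identical copies, so their levels are uncertain. The log2 changes were 0.06 for PLK1 and -0.01 for CKS2 (limma adjusted p = 0.970 and 0.992), and 0.62 and 0.38 without vector replicate 2 (adjusted p = 0.292 and 0.253). Over the role the median ratio of vector replicate 2 to vector replicate 1 was 3.83, and 7 of 11 tested genes had a log2 change above 0, with a median of 0.18. These became 11 of 11 and 0.60 without vector replicate 2.

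All 5 spindle checkpoint and APC/C partner genes were lowest in vector replicate 1, and 4 were highest in vector replicate 2. CDC20, which activates the APC/C, was at 6.85, 35.6 and 10.0 FPKM in the vector libraries and at 19.2, 7.25 and 15.7 in the ARID1B libraries. UBE2C, the ubiquitin-conjugating enzyme that works with the APC/C, was at 2.88, 19.6 and 5.37 FPKM against 9.78, 4.06 and 7.87. These genes had some of the widest spreads between libraries of 1 group, and vector replicate 2 exceeded vector replicate 1 by 5.20-fold for CDC20 and 6.80-fold for UBE2C (95% counting intervals 4.93 to 5.49 and 6.31 to 7.35). The group means of CDC20 were 17.5 ± 15.8 FPKM (SD, n = 3) for the vector and 14.0 ± 6.13 (SD, n = 3) for ARID1B. Its log2 change was -0.06 with all libraries (limma adjusted p = 0.975) and 0.60 without vector replicate 2 (adjusted p = 0.426). The checkpoint kinases TTK, BUB1 and BUB1B had log2 changes of 0.36, 0.24 and 0.55. UBE2C had -0.02 (limma adjusted p = 0.990), and 0.66 without vector replicate 2 (adjusted p = 0.345). Of the 5 genes, 3 had changes above 0 with a median of 0.24, and without vector replicate 2 all 5 did with a median of 0.66.

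**Figure D4:**
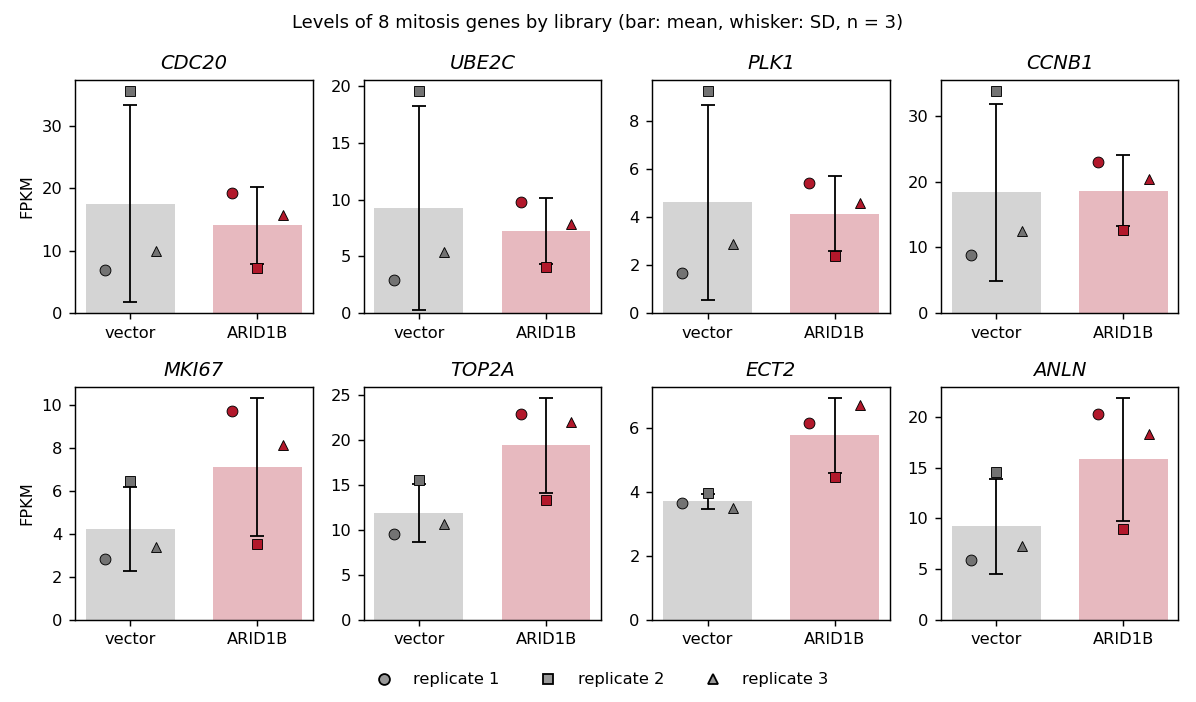
FPKM of 8 mitosis genes in each library (symbols: replicate number), with bars at the group mean and whiskers of 1 SD (n = 3 libraries per group). For CDC20, UBE2C, PLK1 and CCNB1, vector replicate 2 lies above all other libraries, and for MKI67, TOP2A, ECT2 and ANLN, ARID1B replicates 1 and 3 lie above all vector libraries.

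The 10 genes of the centromere, the kinetochore and the chromosomal passenger complex had the largest median ratio of vector replicate 2 to vector replicate 1 among the roles with 3 or more genes, at 4. AURKB, the kinase of the passenger complex, was at 0.927, 6.62 and 1.75 FPKM in the vector libraries and at 2.87, 1.28 and 2.33 in the ARID1B libraries. CDCA8 (borealin), which anchors that complex to the centromere, was at 2.48, 11.8 and 3.89 FPKM against 7.51, 3.65 and 6.59. For AURKB the ratio of vector replicate 2 to vector replicate 1 was 7.14 (95% counting interval 6.47 to 7.90), the largest of the 53 genes. The log2 changes of AURKB and CDCA8 were -0.15 and 0.15 (limma adjusted p = 0.921 and 0.918), and 0.42 and 0.70 without vector replicate 2 (adjusted p = 0.392 and 0.227). BIRC5 (survivin), a partner of both, had a log2 change of -0.07, and 0.48 without vector replicate 2.

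RANGAP1, which stimulates GTP hydrolysis by Ran and sits at nuclear pores and at kinetochores, was at 19.5, 51.3 and 24.2 FPKM in the vector libraries and at 27.5, 18.2 and 24.2 in the ARID1B libraries. It had the most negative log2 change of the 52 (-0.32, SE 0.364, limma adjusted p = 0.765), which rested on vector replicate 2: without that library the change was 0.08. Of the kinetochore genes, CENPE and CENPF, a motor and a large coiled-coil protein, were highest in ARID1B replicate 1 and had log2 changes of 0.48 and 0.41. The other 8 of this role were highest in vector replicate 2. Over the role 7 of 10 changes were above 0, with a median of 0.15, and without vector replicate 2 these were 10 of 10 and 0.56.

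Genes of chromosome structure departed from this order, with vector replicate 2 the highest library for 1 of 6 (CDCA2) and a median ratio of vector replicate 2 to vector replicate 1 of 1.5. TOP2A, the topoisomerase that untangles sister chromatids, was at 9.54, 15.6 and 10.6 FPKM in the vector libraries and at 22.9, 13.3 and 22 in the ARID1B libraries. MKI67, which encodes the Ki-67 antigen of cycling cells, was at 2.83, 6.49 and 3.38 FPKM against 9.73, 3.52 and 8.14. For both, ARID1B replicates 1 and 3 exceeded every vector library whereas ARID1B replicate 2 did not. TOP2A had a log2 change of 0.65 (95% interval 0.02 to 1.29), with a limma p of 0.0457 that was 0.465 after adjustment over all genes. MKI67 had a log2 change of 0.61 (limma adjusted p = 0.636). Without vector replicate 2 the changes of TOP2A and MKI67 were 0.85 and 0.90 (adjusted p = 0.114 and 0.223).

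NCAPD2, a subunit of condensin I, differed little between the vector libraries, at 6.70, 7.31 and 6.84 FPKM, and was at 8.39, 4.69 and 7.45 FPKM in the ARID1B libraries. It was the only gene of the 52 with a log2 change below 0 without vector replicate 2 (-0.02, and -0.05 with all libraries). ANP32E, a histone H2A.Z chaperone, was lowest in vector replicate 2. Over the role 5 of 6 log2 changes were above 0, with a median of 0.27, and again 5 of 6 with a median of 0.48 without vector replicate 2.

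Of the 13 genes of spindle motors and microtubule proteins, 8 were highest in vector replicate 2 and 12 lowest in vector replicate 1. TUBB4B, a beta-tubulin, was the most abundant of all 53 per length at 61.8, 205 and 82.5 FPKM in the vector libraries and 126, 67.9 and 104 in the ARID1B libraries, although reads shared with other tubulin genes make its level uncertain. TPX2, which activates AURKA on the spindle, was at 13, 42.1 and 17.5 FPKM against 30.9, 15.4 and 26.7. PSRC1, a microtubule-associated protein, was at 1.70, 4.45 and 2.13 FPKM against 2.41, 1.72 and 2.24. In all 3 the ARID1B libraries lay inside the range of the vector libraries. Their log2 changes were -0.08, 0.12 and -0.20 (limma adjusted p = 0.957, 0.929 and 0.797), and 0.42, 0.60 and 0.10 without vector replicate 2 (adjusted p = 0.420, 0.302 and 0.694).

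CKAP2, a spindle protein that stabilizes microtubules, had a narrower range, at 6.15, 7.77 and 6.18 FPKM in the vector libraries and 8.89, 7.36 and 9.72 in the ARID1B libraries. Its log2 change was 0.33 (SE 0.145, limma adjusted p = 0.497), and 0.42 without vector replicate 2, when its groups did not overlap. CKAP5, a microtubule polymerase, was lowest in vector replicate 2 and highest in ARID1B replicate 1. The motor KIF11, whose promoter is shown above, had a log2 change of 0.46. Over the role 10 of 13 changes were above 0, with a median of 0.29, and without vector replicate 2 these were 13 of 13 and 0.62.

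The 5 cytokinesis genes all had log2 changes above 0, with a median of 0.41 and again 0 past the threshold. This was the highest median of any role with all 6 libraries, but without vector replicate 2 it was 0.55, below those of the checkpoint (0.66), spindle (0.62), entry (0.60) and centromere (0.56) genes. ECT2, the exchange factor that activates RhoA for the contractile ring, was at 3.67, 3.96 and 3.51 FPKM in the vector libraries and at 6.16, 4.47 and 6.73 in the ARID1B libraries. These groups did not overlap, at 3.71 ± 0.230 FPKM (SD, n = 3) against 5.79 ± 1.17 (SD, n = 3). The log2 change of ECT2 was 0.51 (95% interval 0.14 to 0.88), with a limma p of 0.0141 that was 0.351 after adjustment, and was 0.55 without vector replicate 2.

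ANLN (anillin), a scaffold of the contractile ring, was at 5.87, 14.6 and 7.26 FPKM in the vector libraries and at 20.3, 8.95 and 18.3 in the ARID1B libraries. KIF20B, a kinesin needed for abscission, was at 1.53, 2.47 and 1.69 FPKM against 3.03, 2.11 and 3.33. In both, ARID1B replicates 1 and 3 lay above all vector libraries and ARID1B replicate 2 lay below vector replicate 2. ANLN had the most positive log2 change of the 52 at 0.74 (SE 0.405, limma adjusted p = 0.577), and 1.08 without vector replicate 2 (adjusted p = 0.137). The log2 change of KIF20B was 0.40 (limma adjusted p = 0.498), and 0.54 without vector replicate 2 (adjusted p = 0.115). GAS2L3, which links actin and microtubules, was lowest in vector replicate 2 and had a log2 change of 0.27.

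The last genes of the set, JPT1 and PIMREG, lie outside these roles. JPT1 was at 14.3, 35.3 and 17.8 FPKM in the vector libraries and at 21.0, 14.5 and 19.0 in the ARID1B libraries. PIMREG, which binds the clathrin assembly protein CALM, was at 1.04, 5.07 and 1.67 FPKM against 3.33, 1.32 and 2.5. Both followed the most frequent library order, and their log2 changes were -0.20 and 0.03 (limma adjusted p = 0.829 and 0.982), and 0.17 and 0.49 without vector replicate 2 (adjusted p = 0.628 and 0.346).

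Whether a gene was highest in vector replicate 2 or in an ARID1B library went with its length and base composition. The 35 genes highest in vector replicate 2 had a median longest transcript of 2410 bases (613 to 4220) and a GC content of 47.6%, in the GENCODE v29 annotation. The other 18 had a median of 5170 bases (3100 to 12700) and 38.2%. Over the 53 genes, the log2 ratio of vector replicate 2 to ARID1B replicate 1 had a Spearman's rho of -0.72 with length and 0.73 with GC content. Over 10190 genes the values were -0.55 and 0.43. These correlations run across genes of the same pair of libraries, which are not independent replicates. UBE2C and AURKB, short and with ratios of 2.00 and 2.31, stood at one end, and MKI67, the longest at 12700 bases, had a ratio of 0.667.

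**Figure D5:**
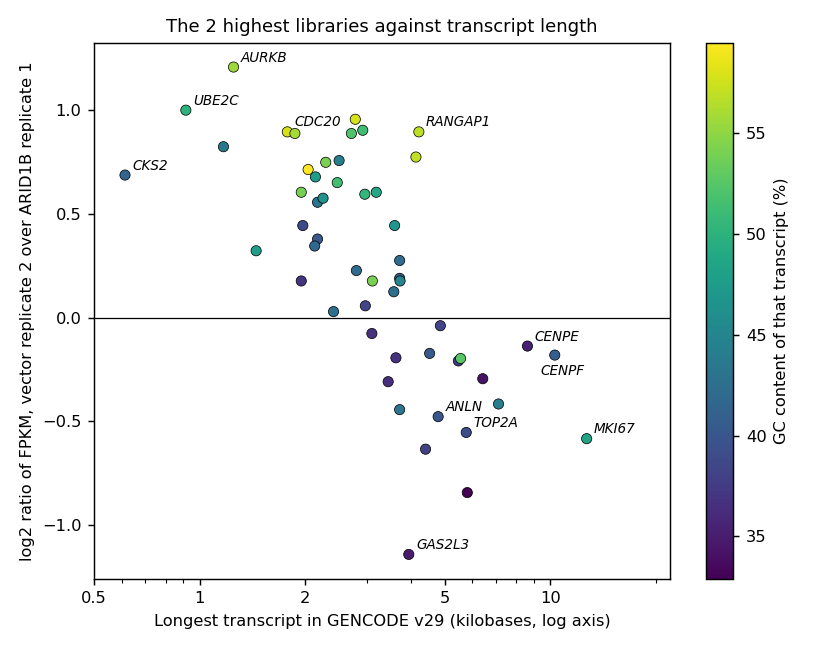
Log2 ratio of FPKM in vector replicate 2 to ARID1B replicate 1 against the length of the longest transcript (kilobases, log axis), for the 53 genes, coloured by the GC content of that transcript. Genes under 3100 bases lie above 0, and those over 4220 bases lie below 0.

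When each library was corrected for GC content and length over all genes, an alternative for the library order that was chosen after seeing the data, vector replicate 2 was the highest library for 42 of 52 genes (80.8%, against 38.2% of 10195 genes) and vector replicate 1 the lowest for 48 (92.3%, against 22.1%). The median difference between these libraries was 1.28 on the corrected log2 scale, against 0.02 over all genes. ARID1B replicate 1 then exceeded ARID1B replicate 2 for 52 of 52 genes, by a median of 0.67. Without the correction these medians were 1.21 and 0.66, and vector replicate 2 was the highest library for 34 of the 52 genes. ARID1B replicates 1 and 3 were the highest for 9 and 1 genes with the correction and for 11 and 7 without it. The part of length and GC content in the spread between libraries was not tested.

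Other genes moved with the same libraries. Of the fibroblast markers, 8 of 10 were lowest in vector replicate 2 (80%, against 37.5% of all genes tested). LUM (lumican), with the smallest ratio among them, was at 4.21 FPKM there and at 42.4 and 33.0 in the other vector libraries. In the ARID1B libraries LUM was at 50.8, 89.9 and 64.8 FPKM. Its log2 change was 1.78 (limma adjusted p = 0.497), and 0.82 without vector replicate 2 (adjusted p = 0.134). VIM (vimentin) lay the other way, at 564, 846 and 622 FPKM in the vector libraries and 556, 428 and 511 in the ARID1B libraries. Its log2 change was -0.43 (limma adjusted p = 0.51), and -0.26 without vector replicate 2 (adjusted p = 0.338). LUM and VIM were the 1 marker higher and the 1 lower whose groups did not overlap, against 9.44% and 11.1% of all genes. The sum of the 10 fibroblast markers ran from 1960 to 2660 FPKM in the vector group and from 1920 to 2690 in the ARID1B group. The smooth muscle markers, 3 of 6 at a mean of 1 FPKM, summed to 75.1 to 129 FPKM in the vector group and 122 to 129 in the ARID1B group. All 3 were lowest in vector replicate 1. ACTG2 was at 62.4, 99.9 and 67.7 FPKM against 109, 111 and 104, and was the 1 of these 3 whose groups did not overlap. Its log2 change was 0.52 (limma adjusted p = 0.429), and 0.73 without vector replicate 2, past the threshold (adjusted p = 0.0297). CNN1 was at 6.76, 11.6 and 7.69 FPKM against 10.3, 9.2 and 9.36. Its log2 change was 0.17 (limma adjusted p = 0.772), and 0.37 without vector replicate 2 (adjusted p = 0.0934). The sums of the epithelial list reached at most 1.5 FPKM and those of the blood list 0.102. Those of the endothelial list ran from 0.988 to 3.76 FPKM in the vector group and from 1.90 to 3.66 in the ARID1B group. TEK, the 1 endothelial marker tested, was at 3.31, 0.802 and 2.85 FPKM in the vector libraries against 1.72, 3.48 and 2.23. Its log2 change was 0.13 (limma adjusted p = 0.902), and -0.26 without vector replicate 2 (adjusted p = 0.518). The part of these markers in the order of the mitosis genes was not tested.

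Genes of mitosis outside the 53 differed between the vector libraries in the same direction. Of 65 listed, 58 were tested. Vector replicate 2 exceeded vector replicate 1 for 56 of them (96.6%, against 50.2% of all genes), by a median of 2.45-fold. None of the 58 passed the threshold in limma, and 2 had an unadjusted p under 0.05, against 4.64% of all genes higher and 5.94% lower. Of the 58, 44 had log2 changes above 0 (75.9%, against 47.6%) and the median was 0.16. Without vector replicate 2, 1 of the 58 passed, 25 had an unadjusted p under 0.05, 55 had changes above 0 and the median was 0.47. The gene called was KIF18A, a kinesin that shortens spindle microtubules, at 1.57, 3.17 and 1.83 FPKM in the vector libraries and 2.91, 2.68 and 3.08 in the ARID1B libraries. Its log2 change was 0.31 with all libraries (limma adjusted p = 0.615) and 0.52 without vector replicate 2 (adjusted p = 0.0433), and it was named after its values were seen. The smallest p-values were those of CDC25B, a CDK-activating phosphatase at 13.2, 13.9 and 13.6 FPKM in the vector libraries and 12.0, 9.06 and 10.4 in the ARID1B libraries, and of SGOL2, a protector of centromeric cohesion at 2.10, 3.36 and 2.40 FPKM against 3.79, 3.21 and 4.27. CDC25B was the 1 gene of the 58 whose groups did not overlap, with lower values in ARID1B, against 11.1% of all genes lower. The log2 changes of CDC25B and SGOL2 were -0.35 and 0.40 (limma adjusted p = 0.421 and 0.466), and -0.33 and 0.54 without vector replicate 2 (adjusted p = 0.184 and 0.0726).

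The 15 subunits of the APC/C, which act in mitosis but are present throughout the cycle, differed less between the vector libraries, with a median ratio of vector replicate 2 to vector replicate 1 of 1.43. Their median log2 change was -0.04, with 7 of 15 above 0 and 0 past the threshold in limma (2 at an unadjusted p under 0.05). The median was 0.04 without vector replicate 2, with 10 of 15 above 0 and again 0 past the threshold (3 at an unadjusted p under 0.05). In that fit 10% of all genes were higher and 13.7% lower at this unadjusted p, and 47.8% lay above 0. CDC27 was at 13, 10.1 and 11.8 FPKM in the vector libraries and 14.1, 15.4 and 15.9 in the ARID1B libraries. CDC26 was at 14.3, 20.1 and 15.5 FPKM against 12.3, 12.3 and 12.2. They were the 1 gene higher and the 1 gene lower of the 15 whose groups did not overlap, against 9.44% higher and 11.1% lower over all genes. Their log2 changes were 0.36 and -0.40 (limma adjusted p = 0.419 and 0.421), and 0.27 and -0.26 without vector replicate 2 (adjusted p = 0.155 and 0.116).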

How the data were processed

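RNA from 6 libraries of IMR90 cells (3 vector, 3 ARID1B) was measured, with groups and replicate numbers taken from the sample labels, which name no batch. The authors deposited FPKM values for 57232 genes. Per the labels, the kit was stranded, and the processing notes of the submitters list hg19, DESeq2, HTSeq 0.5.3p9 and TopHat2 2.0.11, with the role of each not given in the sources used here. The members and lists were chosen with earlier results of these data known.

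Genes averaging 1 FPKM or more were tested on log2(FPKM + 1), which understates changes of low genes, by limma 3.58.1 in R 4.3.3 with its variance trend, Benjamini-Hochberg adjustment over all 10416 genes and a threshold of 0.05. Fits were tested on simulated data. Reads were recovered from the FPKM steps (100% of genes tested whole within 0.002 reads) and may be too small by a shared divisor. Counting intervals are exact (Clopper-Pearson, 95%) and cover counting error only. They and the plots used Python 3.11.15, scipy 1.17.1 and matplotlib 3.10.9.

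Values in every library are given for the 2 most abundant members of each role and the 4 members with the smallest p. They are also given for the 3 largest log2 changes in each direction and for members whose groups do not overlap. MKI67, TOP2A, CDK1, CCNB1, PLK1 and AURKB were added to these. In each other list with tested genes they are given for the 2 with the smallest p, or for TEK alone in the endothelial list. Members named for other values were chosen after these were seen. Alternatives were a pseudocount of 0.1, other filters, other scalings, no variance trend, a replicate block, libraries left out, a spline correction for transcript length and GC content (5 degrees of freedom each, 97.9% of genes matched in GENCODE v29) and voom on the recovered reads. CDC25C is described by its levels only. Protein sequences were not used here, and 1 result on a listed gene is not reported here.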

Additional observations from a re-analysis of the deposited data

How the results depend on the processing

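In each of 16 other settings 0 mitosis genes passed the limma threshold, and their median log2 change stayed above 0, from 0.02 without vector replicate 1 to 0.59 without vector replicate 2. At an unadjusted limma p under 0.05 there were 0 of them with the GC content and length correction. There were also 0 without both libraries numbered 3, without vector replicate 3 and without ARID1B replicate 1 or 3. The remaining settings gave 1 to 23, the latter without vector replicate 2. The log2 changes of ANLN, CDK1, CKAP2, ECT2, KIF20B, MKI67 and TOP2A stayed above 0 in every setting in which they were fitted, which for CDK1, ECT2 and KIF20B leaves out the mean of at least 5 FPKM. All of these were smaller with the GC content and length correction, at 0.58, 0.30, 0.18, 0.35, 0.16, 0.46 and 0.47 in the same order. Of all genes, limma called 0 with no filter, 0 with the replicate block, 0 with both libraries numbered 3 left out, 5 with the GC content and length correction and 1 with voom, and 0 to 324 with 1 library left out, where 324 is without vector replicate 2. The groups did not overlap, with higher values in ARID1B, for 0 mitosis genes at a mean of at least 5 FPKM (10.1% of all genes in that setting), 3 with median-ratio rescaling (11%), 4 with quantile normalization (10.1%) and 0 with the GC content and length correction (8.7%). With 1 library left out they numbered 1 to 26, among these 5 without vector replicate 1 (16% of all genes), 26 without vector replicate 2 (18.8%), 3 without ARID1B replicate 1 (13.5%) and 16 without ARID1B replicate 2 (16.8%). The cause of these moves was not tested.

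Between libraries of the same number, deviations from the group means had correlations of -0.461, -0.431 and -0.171 for numbers 1, 2 and 3. These cannot settle whether such libraries are paired, since deviations within a group sum to 0 and vector replicate 2 stood apart. With the replicate block the median of the mitosis genes was 0.22.

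The genes listed here, with log2 changes from -0.32 for RANGAP1 to 0.19 for CCNB1, turned sign in at least 1 setting. With the GC content and length correction the values were UBE2C 0.09, CKS2 0.00, AURKB 0.05, TUBB4B 0.15 and CDC20 0.16, and with quantile normalization UBE2C 0.01, CKS2 0.07 and TUBB4B 0.05. UBE2C was at 0.01 with a pseudocount of 0.1 and 0.00 with voom, and CKS2 at 0.00 with median-ratio rescaling. With both libraries numbered 3 left out they were TPX2 -0.10, PIMREG -0.15, CCNB1 -0.04, PLK1 -0.16 and CDCA8 -0.09. With 1 library left out the log2 changes ran from -0.55 to 0.66 for UBE2C, -0.21 to 0.60 for TPX2, -0.29 to 0.38 for CKS2, -0.30 to 0.49 for PIMREG, -0.18 to 0.72 for CCNB1, -0.57 to 0.42 for AURKB and -0.35 to 0.62 for PLK1. They ran from -0.43 to 0.42 for TUBB4B, -0.46 to 0.17 for JPT1, -0.52 to 0.60 for CDC20, -0.60 to 0.08 for RANGAP1, -0.20 to 0.16 for NCAPD2, -0.24 to 0.70 for CDCA8 and -0.41 to 0.10 for PSRC1. Depth was no limit for these genes, but 3 libraries per group, of which replicate 3 lay between the others for most genes, limit every comparison of the groups.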

Other observations

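Genes of G1/S and DNA replication, the phase before, differed between libraries of a group in the same direction as the mitosis genes. Of 47 listed, 44 were tested. Vector replicate 2 exceeded vector replicate 1 for 43 of these (97.7%, against 50.2% of all genes), by a median of 2.32-fold. ARID1B replicate 2 was the lowest of its group for 44 of 44 (100%, against 55.2%). In limma 0 passed the threshold, and 3 had an unadjusted p under 0.05, against 4.64% of all genes higher and 5.94% lower. The median log2 change was 0.05, with 32 above 0 (72.7%, against 47.6%). Without vector replicate 2 again 0 passed, and 17 had an unadjusted p under 0.05, against 10% of all genes higher and 13.7% lower. The median was then 0.35, with 43 above 0 (97.7%, against 47.8%). POLD3, a subunit of DNA polymerase delta, was at 1.71, 1.84 and 1.69 FPKM in the vector libraries and 2.37, 2.21 and 2.47 in the ARID1B libraries. WDHD1, a replication fork protein, was at 1.49, 2.09 and 1.66 FPKM against 2.66, 2.07 and 2.68. The groups of WDHD1 overlapped only in that ARID1B replicate 2 lay under vector replicate 2. The log2 changes of POLD3 and WDHD1 were 0.29 and 0.34 (limma adjusted p = 0.370 and 0.438), and 0.31 and 0.43 without vector replicate 2 (adjusted p = 0.0809 and 0.0934).

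Regulators of cell cycle genes (20 of 27 tested, 0 past the threshold in limma, 1 at an unadjusted p under 0.05) had a median ratio of vector replicate 2 to vector replicate 1 of 1.12 and a median log2 change of 0.04, with 12 above 0. Without vector replicate 2 the median was 0.13, with 11 above 0 and 9 at an unadjusted p under 0.05. In that limma fit 10% of all genes were higher and 13.7% lower at this unadjusted p, and 47.8% lay above 0. E2F3, an E2F transcription factor, was at 4.30, 3.39 and 3.92 FPKM in the vector libraries and 5.43, 5.45 and 5.71 in the ARID1B libraries (log2 change 0.43, limma adjusted p = 0.313, and 0.35 without vector replicate 2, adjusted p = 0.0694). CDKN1A, the CDK inhibitor p21, was at 90.5, 115 and 95.8 FPKM against 125, 123 and 118 (log2 change 0.29, limma adjusted p = 0.509, and 0.39 without vector replicate 2, adjusted p = 0.0758). These were the 2 of 20 genes whose groups did not overlap with higher values in ARID1B, against 9.44% of all genes. Without vector replicate 2 there were 6 of 20 higher and 5 lower, against 18.8% and 23.9%.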
